A study of Mus musculus with 12 samples.

Results

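The 4 adult globin genes of the mouse, Hba-a1, Hba-a2, Hbb-bs and Hbb-bt, and Alas2, the erythroid enzyme that starts heme synthesis, were followed in the soleus, a calf muscle of mostly slow fibres. They were taken by symbol from 4 tables of comparisons that hold 28997 genes, and all 5 of 5 were found. The 12 samples are whole soleus muscles of 12 mice, and per the labels they form 4 groups of 3. Cdh5cre-WT mice were kept on chow diet or on high fat diet, and Cdh5Cre-NOX1CKO mice, with a conditional Nox1 knockout, were kept on either diet, all for 8 weeks. Every group, controls included, carries a Cre driven by Cdh5, a gene of endothelial cells, so the deletion is meant for endothelium and the muscle was sequenced whole. The tables code the groups as G1 to G4, but neither the labels nor the tables say which code stands for which genotype and diet. The groups are therefore named by code, and no difference is read as one of diet or genotype. Each sample is a separate animal per the labels, which mention neither batches nor pairs.

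Hemoglobin is built from 2 alpha and 2 beta chains, each of which holds a heme. In the adult mouse the alpha chains come from Hba-a1 and Hba-a2 and the beta chains from the neighbouring genes Hbb-bs and Hbb-bt. Alas2 joins glycine to succinyl-CoA in the mitochondria of red cell precursors, while other tissues use its relative Alas1 for the same step. Young red cells that have left the marrow still carry globin and Alas2 RNA, so in a muscle these transcripts are known as a measure of blood, and alpha globin is also known from the endothelium of small arteries.

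Sequences show why the members were read in pairs. The coding sequences of Hba-a1 and Hba-a2 differ at 1 of 429 bases, and those of Hbb-bs and Hbb-bt at 1 of 444, in the GENCODE M21 transcripts on GRCm38. The 60 coding bases around each difference are printed 5′ to 3′ with the differing base in capitals.
Hba-a1: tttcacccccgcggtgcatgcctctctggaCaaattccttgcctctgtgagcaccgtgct
Hba-a2: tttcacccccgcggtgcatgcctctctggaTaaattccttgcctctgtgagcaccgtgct
Hbb-bs: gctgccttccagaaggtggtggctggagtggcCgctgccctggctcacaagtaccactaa
Hbb-bt: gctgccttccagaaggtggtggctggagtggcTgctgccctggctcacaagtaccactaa
Of all stretches of 50 bases in the Hba-a1 transcript, 67.54% also lie in that of Hba-a2, and 86.93% the other way round. For Hbb-bs and Hbb-bt the shares are 65.8% and 58.26%. No such stretch is shared between an alpha gene, a beta gene and Alas2. The split of reads within a pair is therefore uncertain, while alpha, beta and Alas2 are counted from separate sequence.

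The alpha genes lie on chromosome 11, Hba-a1 at chr11:32283672-32284486 and Hba-a2 at chr11:32296492-32297310, both on the plus strand. The beta genes lie on the minus strand of chromosome 7, Hbb-bs at chr7:103826523-103827928 and Hbb-bt at chr7:103812524-103813923. Alas2 lies on the plus strand at chrX:150547417-150570622. These are RefSeq positions on GRCm38.p6, and the GENCODE transcripts have 3 exons for each globin gene and 11 for Alas2.

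The 5 genes varied together across the libraries, so the 120 bases before each RefSeq gene start are shown 5′ to 3′ on the gene's strand. Capitals mark 4 short words, searched for on both strands. The first is CACCC, the second CCAAT. The GATA word was searched as AGATAA and, in its second form, as TGATAA. The TATA word was searched as TATAAA and, in its second form, as ATATAA.
Hba-a1, chr11:32283552-32283671: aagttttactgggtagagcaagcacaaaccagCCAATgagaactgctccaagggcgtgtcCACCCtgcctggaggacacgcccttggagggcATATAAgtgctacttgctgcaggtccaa
Hba-a2, chr11:32296372-32296491: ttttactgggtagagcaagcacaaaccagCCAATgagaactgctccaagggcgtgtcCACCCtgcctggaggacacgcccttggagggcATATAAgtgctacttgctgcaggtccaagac
Hbb-bs, chr7:103827929-103828048: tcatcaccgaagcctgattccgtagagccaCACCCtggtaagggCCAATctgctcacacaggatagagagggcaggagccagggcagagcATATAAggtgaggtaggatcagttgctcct
Hbb-bt, chr7:103813924-103814043: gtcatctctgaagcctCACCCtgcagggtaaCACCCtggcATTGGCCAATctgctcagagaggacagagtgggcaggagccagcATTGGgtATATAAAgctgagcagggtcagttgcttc
Alas2, chrX:150547297-150547416: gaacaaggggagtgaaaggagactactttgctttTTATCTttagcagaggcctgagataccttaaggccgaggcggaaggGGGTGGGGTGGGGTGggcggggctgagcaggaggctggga
The alpha windows share a run of 117 bases, whereas the longest run shared by the beta windows is 14 bases. All 4 globin windows hold CACCC, the TATA word and also CCAAT. That of Alas2 holds 3 CACCC words and 1 GATA word, each on the other strand. Among 32851 RefSeq promoter windows of the same length, 31.71% hold CACCC and 8.74% the TATA word. CCAAT lies in 21.29% of them and the GATA word in 7.63%. In the Hbb-bt window the 2 forms of the TATA word overlap. These matches describe letters, not binding.

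The globin genes and Alas2 together took 0.0152% of the reads. A library held 24905255 normalised reads on average, that is, reads divided by the library's size factor, and the size factors ran from 0.787 to 1.25. Summed over the 12 libraries the authors' deposited table gives 16239 normalised reads for Hba-a2, 15501 for Hbb-bs, 10829 for Hba-a1, 2265 for Hbb-bt and 681 for Alas2. Per kilobase of transcript and 1000000 reads, Hba-a2 stood at 98.1, Hbb-bs at 82.6, Hba-a1 at 51.8, Hbb-bt at 10.8 and Alas2 at 1.12. On that same scale Cdh5, the endothelial cadherin, stood at 43.3 and Mb, the myoglobin of the muscle fibres, at 7186. The muscle genes Acta1, an actin, and Myh7, the slow myosin heavy chain, stood at 15322 and 1611. Alas1, the form of the enzyme used outside red cells, stood at 42.7.

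Further red cell genes had few reads. Slc4a1, the anion exchanger of the red cell membrane, had 39 reads over the 12 libraries. Klf1 and Gata1, transcription factors of red cell precursors, had 39 and 6 reads, and the alpha-like globin Hbq1b had 3. The further globin genes of the list (Hba-x, Hbq1a, Hbb-y and the Hbb-bh genes among them) were not found by symbol among the 28997 genes. Sptb, a spectrin, and Ank1, an ankyrin, are red cell markers that muscle also makes, and Sptb alone had a total of 123102 normalised reads. Nox1, the gene targeted in the knockout, had a total of 25.2 normalised reads, with 0 to 3 reads a library in G1 and 3 to 4 in G2, while G3 had 1 to 2 and G4 had 0 to 4. At this depth whole muscle does not check the labels. In bulk tissue, fewer red cells and less RNA per cell cannot be told apart.

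The tables give no value per library. The total, log2 fold changes and p-values of a gene nevertheless fix its reads in each library, and the whole reads found for the 5 genes return the deposited log2 values to within 1e-11. Libraries are numbered 1 to 3 within a group by falling size factor, and a number does not name a labelled mouse. The reads per library ran from 639 to 1934 for Hbb-bs and from 33 to 102 for Alas2, for which counting error alone is 17.4% at the lowest and 9.9% at the highest count. Values below are normalised reads, and intervals in brackets are 95% intervals.

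Hbb-bs, the more abundant beta chain gene, had 1464, 1115 and 2078 normalised reads in libraries 1 to 3 of G1, and 1208, 1016 and 648 in those of G2. In G3 it had 1310, 1672 and 1295, and in G4 982, 1096 and 1617. The highest library of G2 lay above the lowest of G1, so these groups overlapped, and every other compared pair of groups overlapped as well. The mean was 1552 ± 487, 957 ± 285, 1426 ± 214 and 1232 ± 339 (SD, n = 3 each) for G1 to G4.

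Hbb-bt, the beta chain gene with fewer reads, had 218, 151 and 284 normalised reads in G1 and 197, 165 and 88.2 in G2. It had 194, 259 and 212 in G3, and 131, 148 and 219 in G4. Its highest and lowest libraries were those of Hbb-bs. The group means were 218 ± 66.3, 150 ± 55.8, 222 ± 33.1 and 166 ± 46.4 (SD, n = 3 each) for G1 to G4.

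Hba-a1, an alpha chain gene, had 961, 893 and 1447 normalised reads in G1 and 874, 718 and 405 in G2. All libraries of G1 thus lay above all of G2, by a narrow gap between 893 and 874. It had 848, 1118 and 928 in G3, and 662, 804 and 1171 in G4. The means were 1100 ± 302, 666 ± 239, 965 ± 139 and 879 ± 263 (SD, n = 3 each) for G1 to G4.

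Hba-a2, the other alpha chain gene, had 1338, 1125 and 2114 normalised reads in G1, 1220, 1051 and 656 in G2, 1385, 1927 and 1340 in G3, and 1109, 1139 and 1833 in G4. Again library 3 of G1 was the highest and library 3 of G2 the lowest. The means were 1526 ± 520, 976 ± 290, 1551 ± 327 and 1361 ± 410 (SD, n = 3 each) for G1 to G4.

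Alas2 had 49.8, 48.8 and 105 normalised reads in G1 and 44.0, 36.8 and 33.5 in G2. These groups did not overlap, yet 2 of the 3 libraries of G1 lay within 6 reads of the highest of G2. It had 73.1, 88.2 and 49.0 in G3, and 45.8, 37.0 and 69.9 in G4. The means were 67.9 ± 32.3, 38.1 ± 5.41, 70.1 ± 19.8 and 50.9 ± 17.0 (SD, n = 3 each) for G1 to G4.

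Library 3 of G1 held the highest value of all 12 libraries for 5 of 5 genes, and library 3 of G2 the lowest for 5 of 5. Within G3 and G4, libraries 2 and 3 respectively were the highest for 5 of 5. The lowest group mean was that of G2 for each of the 5 genes, and the second lowest that of G4. G1 was highest for Hba-a1 and Hbb-bs, and G3 for Hba-a2, Hbb-bt and Alas2.

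**Figure D1:**
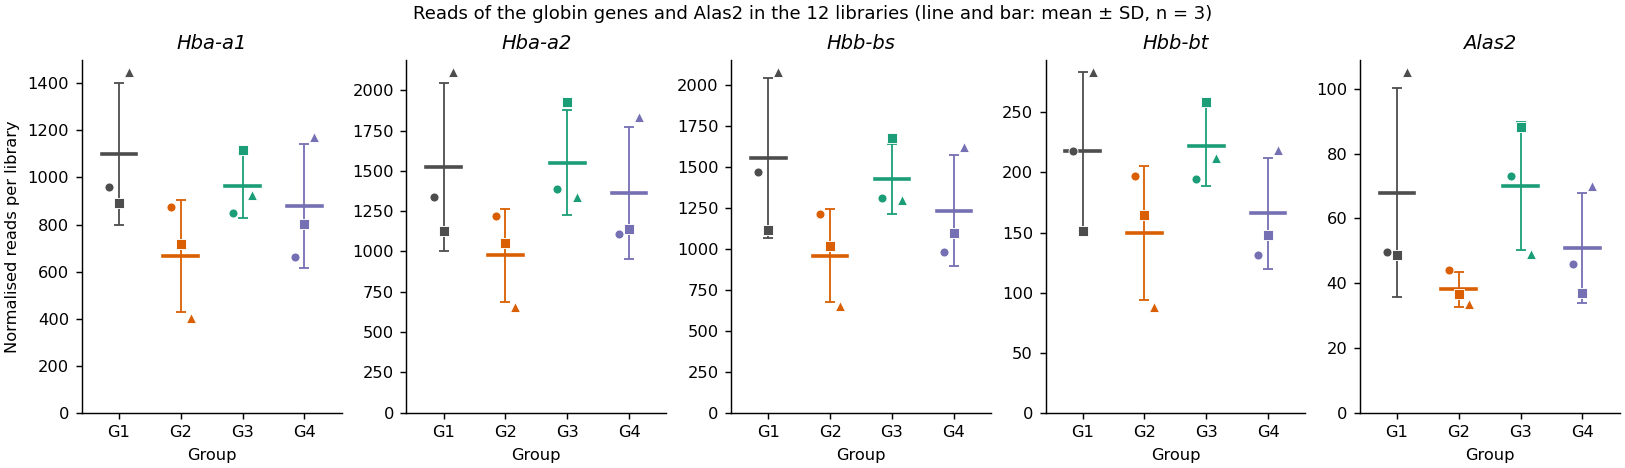
Normalised reads (y axis, from 0) of the 5 genes in each library, by group (x axis); circle, square and triangle are libraries 1, 2 and 3 of a group, and line and bar are the mean ± SD (n = 3). For Hbb-bs library 3 of G1 sits at 2078 and library 3 of G2 at 648, and the groups overlap.

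In G2 against G1 all 5 genes had lower values, and none passed an adjusted p of 0.05, the threshold for a gene to be called. Alas2 had a log2 fold change of -0.83 in the authors' deposited table, a level 1.77-fold lower, with a p of 0.0237 and a standard error of 0.37 implied by these values. In the authors' deposited table Hba-a1 stood at -0.72 (p = 0.00692), with an implied standard error of 0.27. Hbb-bs stood at -0.70 (p = 0.00605) in the authors' deposited table, with an interval of [-1.19, -0.20]. Hba-a2 and Hbb-bt stood at -0.64 (p = 0.0598) and -0.53 (p = 0.0734) in the authors' deposited table. The adjusted p of each of the 5 was 1.0 there.

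The background for these counts is low. The authors' deposited table for G2 against G1 lists 15652 genes, and 1 of them, Ucp3, a mitochondrial carrier of muscle, passed the adjusted threshold. Over the 28997 genes of the 4 tables that is 0.00345%, a count of falls only, since rebuilt rises were not counted. At an unadjusted p under 0.05 with a lower value in G2, 3 of the 5 genes stood against 195 of 15494 genes with a total of at least 100 (1.26%). The 3 genes, Hba-a1, Hbb-bs and Alas2, varied together across libraries and are not separate evidence. An exact two-sided permutation test of the 3 libraries of G2 against the 3 of G1 gave p = 0.1 for Hba-a1 and for Alas2, the smallest it allows, 0.2 for Hba-a2 and Hbb-bs, and 0.3 for Hbb-bt. The median log2 of the 5 genes was -0.70, beside -0.00099 over the 15494 genes.

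This difference leaned on 2 libraries. Without library 3 of G1 or without library 3 of G2, 0 of the 5 genes had an unadjusted p under 0.05. Without library 2 of G1 or library 1 of G2, 5 of 5 had. The median log2 was -0.37 without library 3 of G1 and ran down to -0.90 without library 1 of G2. All 5 genes kept a lower value in G2 whichever of the 6 libraries was left out.

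In G3 against G1 the genes stood on both sides of 0. The log2 fold changes in the authors' deposited table were -0.19 for Hba-a1, -0.12 for Hbb-bs, 0.024 for Hba-a2, 0.029 for Hbb-bt and 0.059 for Alas2, with unadjusted p from 0.479 to 0.945. None of the 5 was called, beside 61 of 28997 genes (0.21%) in the authors' deposited table. The interval for Hbb-bs was [-0.62, 0.37] and that for Alas2 [-0.64, 0.76], so changes within these bounds were not excluded with 3 mice a group. Without library 3 of G1 all 5 genes stood above 0, from 0.058 for Hba-a1 to 0.52 for Alas2. The median of the 5 genes was 0.024, and that of the 15494 genes was 0.00032.

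In G4 against G2 all 5 values were higher in G4, and none was called. Hba-a2 had a log2 fold change of 0.48 in the authors' deposited table (p = 0.162, adjusted p = 0.764). There Alas2 stood at 0.41 (p = 0.273), Hba-a1 at 0.40 (p = 0.136), Hbb-bs at 0.36 (p = 0.154) and Hbb-bt at 0.14 (p = 0.642), all as in the authors' deposited table. Among the 14539 genes that have an adjusted p in the authors' deposited table, 200 were called (1.38%). The median of the 5 was 0.40, beside 0.00034 over the 15494 genes, and it fell to 0.12 without library 3 of G4. In G4 against G2 Hbb-bt stood at -0.13 without library 3 of G2 and at -0.11 without library 3 of G4.

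In G4 against G3 all 5 values were lower in G4, again with none called, and that of Hba-a1 was 0.034 without library 1 of G4. Alas2 stood at -0.48 (p = 0.19) and Hbb-bt at -0.42 (p = 0.157) in the authors' deposited table. Hbb-bs, Hba-a2 and Hba-a1 stood at -0.21, -0.19 and -0.13 in the authors' deposited table, with p from 0.404 to 0.616. There 7 of 17752 genes were called (0.0394%). The median of the 5 was -0.21, beside 0.0036 over the 15494 genes. Without library 3 of G4 it was -0.46, and without library 1 of G4 it was -0.072.

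The interaction asks whether G4 against G3 differs from G2 against G1. It is one of genotype and diet only if both comparisons differ in the same single factor, which no label states. All 5 differences were above 0, from 0.11 for Hbb-bt to 0.59 for Hba-a1, which had an interval of [-0.15, 1.33]. Without 1 library, the difference for Hbb-bt was below 0 in 3 of 12 settings, down to -0.16 without library 3 of G2, and that for Alas2 in 1 of 12, at -0.11 without library 3 of G1. None was called, the lowest unadjusted p was 0.12 and the adjusted p of each was 1.0 to 3 digits, beside 1 of 15494 genes called (0.00645%). These comparisons share groups, so the 5 genes' signs in one are not separate from those in the next. In the order of levels, the neighbours G1 and G3, G3 and G4, and G4 and G2 did not differ beyond the spread between mice for any of the 5 genes. For G4 against G1, which has no deposited table, the modelled log2 was -0.33 with a standard error of 0.25 for Hbb-bs and -0.42 with a standard error of 0.36 for Alas2.

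**Figure D2:**
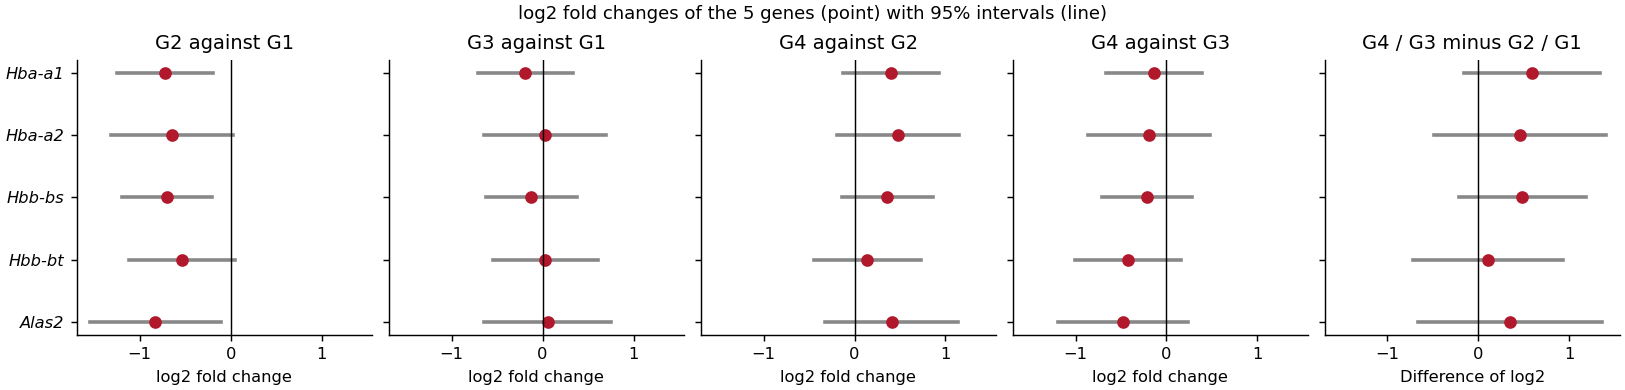
log2 fold changes (x axis) of the 5 genes (y axis) in the 4 deposited comparisons and, in the last panel, the difference between G4 against G3 and G2 against G1; points are values and lines 95% intervals. The intervals of Hba-a1, Hbb-bs and Alas2 in G2 against G1 lie below 0, and all other intervals cross 0.

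Across the 12 libraries the 5 genes rose and fell together. The log2 normalised reads of Hbb-bs correlated with those of Hba-a2 at Pearson r = 0.98 and Spearman rho = 0.965, each with a permutation p of 2e-05, the smallest that 100000 permutations can give. With Hba-a1 r was 0.978 and rho 0.944 (permutation p = 2e-05 and 8e-05), and with Hbb-bt r was 0.967 and rho 0.958 (permutation p = 2e-05 and 4e-05). Hbb-bt shares reads with Hbb-bs, whereas the alpha genes do not. With Alas2, counted from 33 to 102 reads, r was 0.867 and rho 0.923 (permutation p = 1e-04 and 2e-05).

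These values held within groups and without the extreme libraries. Once each group's mean was taken off, r was 0.987 for Hba-a2, 0.968 for Hba-a1, 0.984 for Hbb-bt and 0.789 for Alas2. Without the libraries farthest from the median of Hbb-bs, library 3 of G1 and library 3 of G2, r was 0.945, 0.939, 0.92 and 0.809 in the same order. The libraries share their size factor through the normalisation, and Hbb-bs against the log2 size factor gave r = -0.104. Over the family of 16 relations the adjusted permutation p of Pearson's r was 0.000107 for each of the other 3 globin genes and 4e-04 for Alas2.

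None of the other 12 relations of the family passed an adjusted p of 0.05. The summed reads of 5 low red cell markers (Slc4a1, Epb42, Rhag, Klf1 and Gata1) gave r = 0.294 (permutation p = 0.347, adjusted 0.505), from 2.51 to 13.0 normalised reads a library. Of the markers of other cells, the mean of 7 endothelial genes gave r = 0.0398 (permutation p = 0.907), that of 7 monocyte and macrophage genes 0.262 (permutation p = 0.414), and that of 6 adipocyte genes 0.354 (permutation p = 0.258). The 2 platelet genes with enough reads gave r = 0.2 (permutation p = 0.515). Haptoglobin (Hp), the plasma protein that binds free hemoglobin, gave r = 0.514 (permutation p = 0.0787, adjusted 0.252), and 0.205 without the 2 farthest libraries. The red cell markers and haptoglobin were named after their values were seen.

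**Figure D3:**
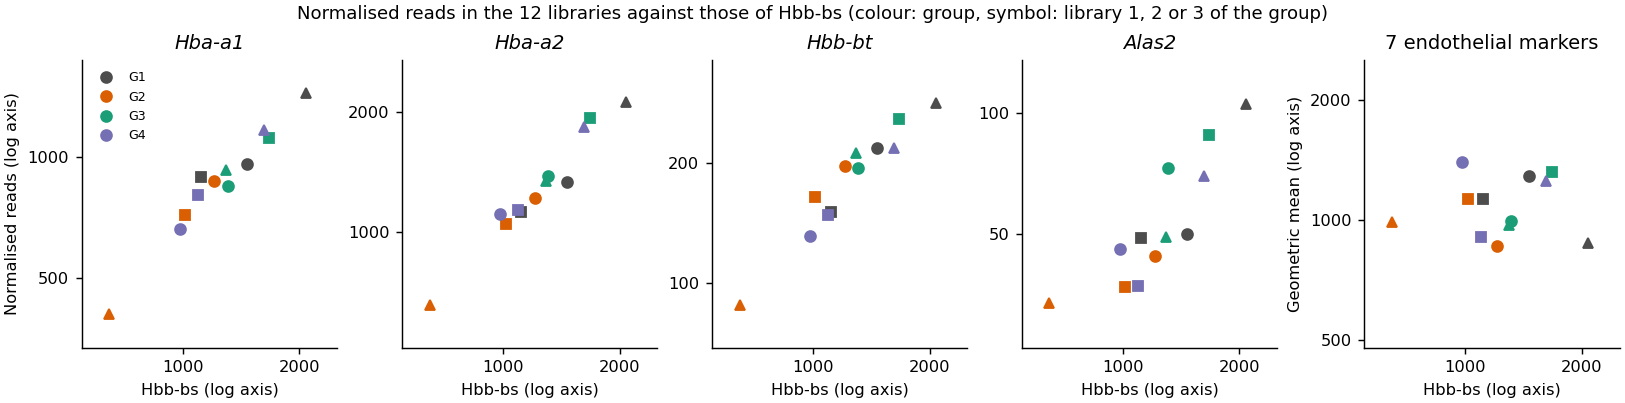
Normalised reads of Hba-a1, Hba-a2, Hbb-bt and Alas2, and the geometric mean of 7 endothelial markers (y axes, log), against those of Hbb-bs (x axis, log) in the 12 libraries; colours are groups and symbols libraries 1 to 3. The first 4 panels rise along Hbb-bs (r = 0.867 to 0.98), and the endothelial panel does not (r = 0.0398).

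Other cell markers were set beside the globin values by group. Platelet markers summed to 72.7 to 88.3 normalised reads in the libraries of G1 and to 54.4 to 70.0 in those of G2. The sums were 69.0 to 82.1 in G3 and 53.3 to 87.4 in G4. Every library of G2 was lower in this sum than any of G1. For the platelet genes Pf4 and Itga2b taken singly G1 and G2 overlapped, with Pf4 at 46.9 to 75.1 in G1 and 34.1 to 54.7 in G2. Neutrophil markers were near 0, with 2.03 to 13.0 normalised reads a library over 6 genes. Lymphocyte markers ran from 82.7 to 184 in G1 and from 62.5 to 123 in G2. Adipocyte markers summed to 5318 to 6473 in G1 and to 4339 to 5082 in G2, without overlap. Most of that sum was Fabp4, a gene of adipocytes and capillaries, at 4417 to 5001 in G1 and 3707 to 4103 in G2. Adipoq, Plin1, Lep, Cfd and Cidec each overlapped between G1 and G2. How many of all genes separate these groups is not known, since reads were solved for listed genes only. Monocyte and macrophage markers overlapped, at 1079 to 1686 in G1 and 841 to 1258 in G2. Of 13 genes of their longer list 12 stood lower in G2 than in G1, where 49.7% of 15494 genes stood above 0. These genes mark related cells and are not separate evidence. The list's median in G2 against G1 was -0.42 on the log2 scale, and 0 were called. Endothelial markers overlapped, at 9497 to 13424 in G1 and 9440 to 11423 in G2. The part of these cells in the globin values was not tested.

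Ratios within a library varied less than the levels. The alpha to beta ratio of normalised reads ran from 1.37 to 1.64 over the 12 libraries, a 1.2-fold range, while the summed alpha reads ranged 3.36-fold and the summed beta reads 3.21-fold. Its mean was 1.49 ± 0.115, 1.48 ± 0.0312, 1.52 ± 0.0489 and 1.60 ± 0.0374 (SD, n = 3 each) for G1 to G4. Taken per length of transcript, alpha stood at 1.60 ± 0.08 (SD, n = 12) times beta. Alas2 had 1.16 to 1.96 reads per 100 globin reads, a 1.69-fold range, with means of 1.50, 1.46, 1.68 and 1.40 for G1 to G4. The groups overlapped in this last ratio.

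The split within a pair also stayed narrow, with the limit on shared reads given above. Hba-a2 had 1.26 to 1.72 times the reads of Hba-a1, and Hbb-bs 6.11 to 7.49 times those of Hbb-bt. With copies summed, the median log2 of alpha, beta and Alas2 in G2 against G1 was -0.68.

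**Figure D4:**
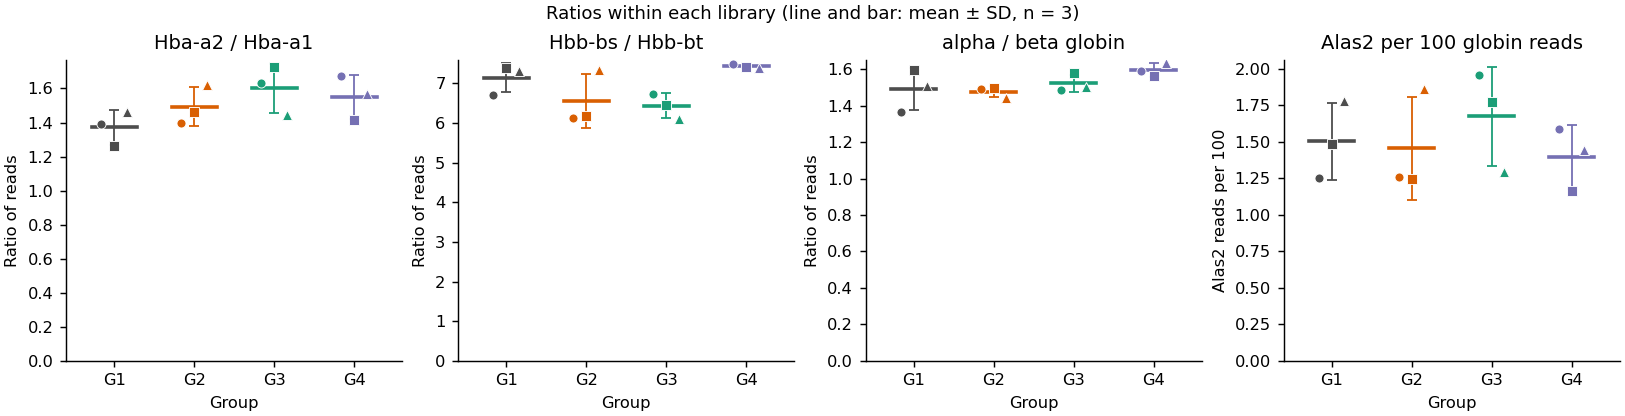
Ratios within each library (y axes, from 0) by group (x axis), with circle, square and triangle for libraries 1, 2 and 3 and line and bar for the mean ± SD (n = 3). The alpha to beta ratio stays between 1.37 and 1.64, and Alas2 between 1.16 and 1.96 reads per 100 globin reads.

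In G2 against G1 the log2 fold changes of the 8 enzymes of heme synthesis other than Alas2 lay between -0.10 and 0.030 with a median of -0.028, and 0 of 8 were called. The largest of them by total were Alas1 (-0.032) and Fech, the ferrochelatase that puts iron into the ring (-0.024), both in the authors' deposited table. Of the enzymes between the first step and the last, Uros stood at -0.076, Urod at 0.0023, Cpox at 0.030 and Ppox at -0.10, with Urod and Cpox rebuilt from the other comparisons, since the table for G2 against G1 lists no gene above 0.

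Alad, the second enzyme of the pathway, was called in 2 comparisons. It had 622, 608 and 578 normalised reads in G1, and 934, 903 and 759 in G3, with no overlap. Its log2 fold change in G3 against G1 was 0.52 in the authors' deposited table (adjusted p = 0.0106), with an implied standard error of 0.12. In G4 it had 663, 831 and 875, all above the 575, 595 and 543 of G2, and it rose there by a log2 of 0.47 in the authors' deposited table (adjusted p = 0.0161). Left without any 1 library, its log2 stayed between 0.47 and 0.61 in G3 against G1 and between 0.39 and 0.58 in G4 against G2, with unadjusted p of at most 0.000575 and 0.0044. Alad against Hbb-bs over the libraries gave r = 0.37 (permutation p = 0.238). Among the 8 enzymes 1 was called higher and 0 lower in each of these comparisons, with medians of -0.033 and -0.023, and 0 of 8 were called in G4 against G3.

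Of 17 genes of heme and iron transport, 0 were called in G2 against G1, where 5 stood above 0 and 12 below, with a median of -0.06. The lowest were the heme exporter Flvcr1 at -0.84 (p = 0.0647), the iron exporter Slc40a1 at -0.69 (p = 0.00719) and transferrin, Trf, at -0.53 (p = 0.0275), all in the authors' deposited table with an adjusted p of 1.0 and named after their values were seen. Slc40a1 and Trf were the 2 of 17 with an unadjusted p under 0.05 there. Slc25a39, a mitochondrial carrier known to import glutathione, was called in G4 against G2, at 0.34 in the authors' deposited table (adjusted p = 0.00919). It had 914, 893 and 1008 normalised reads in G2 and 1163, 1214 and 1171 in G4. The most abundant of the list, the transferrin receptor Tfrc, stood at -0.036 in G2 against G1 in the authors' deposited table. Of 9 measured genes of heme breakdown and hemoglobin clearance 0 were called in any comparison. Among them the ferritin chain Fth1 stood at 0.0042 (rebuilt) and the receptor Lrp1 at -0.022 (authors' deposited table) in G2 against G1, with a median of -0.039 for the list. Haptoglobin (Hp), named after its values were seen, was lower than these, at -1.15 in G2 against G1 (p = 0.000196) and -0.72 in G3 against G1 (p = 0.0199) in the authors' deposited tables, with an adjusted p of 1.0 in both.

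Genes of the red cell and its precursors were also read in G2 against G1, and their difference from the globin genes was not tested. Of 22 genes of the red cell membrane and its enzymes, 10 had a total of at least 100, and their median in G2 against G1 was -0.041, with 0 called. The most abundant were Sptb (0.065) and the water channel Aqp1 (0.054), both rebuilt. The lowest were the adducin Add2, with a total of 162 normalised reads, at -0.64 (p = 0.446) and Dmtn at -0.27 (p = 0.358) in the authors' deposited table. In the authors' deposited tables Add2 stood at 0.088 in G3 against G1 and at 1.22 in G4 against G2. Of 9 erythroid transcription factors 4 could be counted, with a median of -0.12, among them Ldb1 (0.059, rebuilt) and Zfpm1 (-0.24, authors' deposited table). Of 10 genes kept in reticulocytes 7 could be counted, with a median of -0.013, led by Xpo7 (0.046, rebuilt) and Tmcc2 (-0.14, authors' deposited table). The lowest of them was Isg20, at -0.38 in the authors' deposited table (p = 0.357). Add2, Dmtn and Isg20 were named after their values were seen. None of these 21 genes was called in G2 against G1. Several are made by muscle fibres or endothelium as well. Of the tissue globins, Mb stood at -0.092 and cytoglobin (Cygb) at -0.028 in the authors' deposited table, and neither was called in any comparison, while neuroglobin (Ngb) had 8 reads in all and Adgb a total of 6.47.

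**Figure D5:**
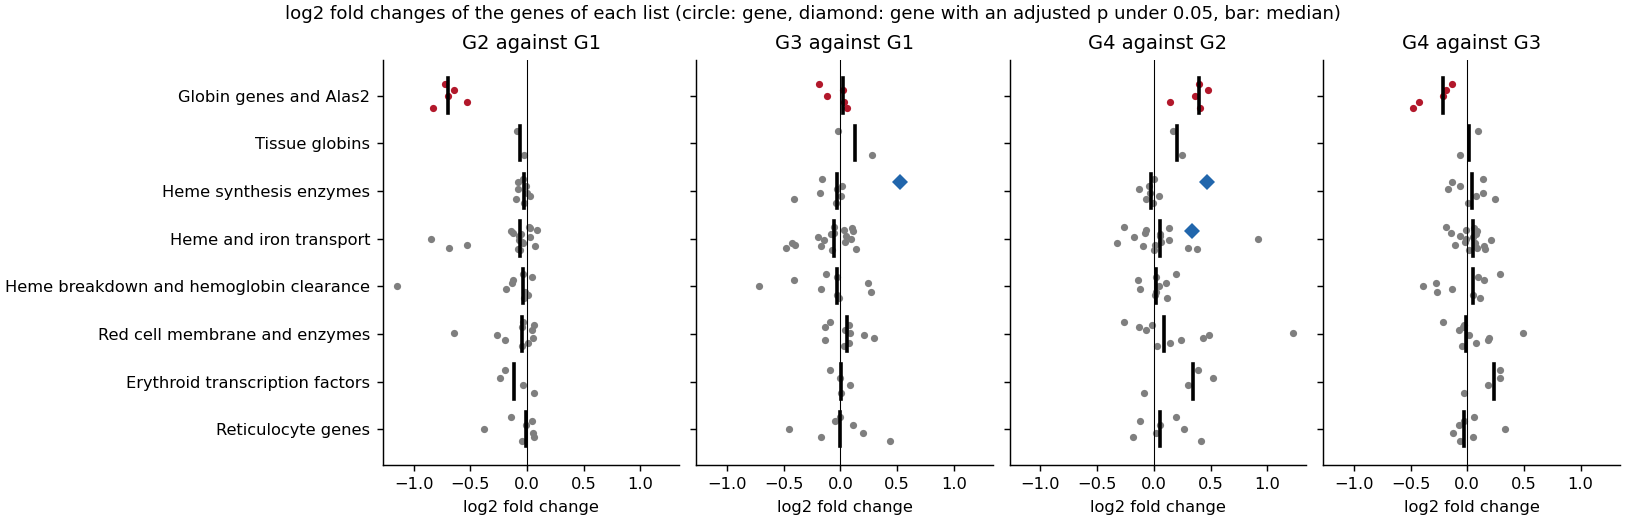
log2 fold changes (x axis) of each list's genes (those with totals of at least 100) (y axis) for the 4 comparisons; circles are genes, blue diamonds genes with an adjusted p under 0.05, and black bars medians. In G2 against G1 the globin genes and Alas2 lie between -0.83 and -0.53 and the heme synthesis enzymes between -0.10 and 0.030.

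The genes whose levels over the 4 groups were most like those of the members were in none of the lists. By Euclidean distance to the members' median (0.29, -0.41, 0.22 and -0.046 in G1 to G4, as log2 levels minus the gene's mean), the nearest of 15489 other genes were Sash3 (distance 0.0676), the pseudogene Gm5500 (0.0894) and Gcnt1 (0.0908). They were followed by 4933427D14Rik, Gm8504, Pola1, Gm11983, Gm15441, Gm17251 and Cds1, up to a distance of 0.123. The members themselves lay at 0.0547 (Hbb-bs), 0.107 (Hba-a1), 0.124 (Hba-a2), 0.178 (Hbb-bt) and 0.193 (Alas2), so with 4 group levels the 10 genes were as near as the members. Of the 29 genes with totals of at least 100 in the lists of heme synthesis, red cell membrane, erythroid factors and reticulocytes, the nearest was Dmtn, the red cell protein dematin, at rank 1024, named after its value was seen. None of the 10 genes was called in G2 against G1.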

How the data were processed

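Libraries of soleus RNA came from a KAPA stranded mRNA kit, per the protocols in the labels. The tools named in the submitters' processing notes are Bowtie2 2.1.0, edgeR and RSEM 1.2.15, with mm10 or GRCm38 as build, and neither role nor order is given. The 4 tables hold comparisons made by the authors. Per the file headers each gives a total, a signal in normalised reads summed over 12 libraries by the authors, a p-value with its step-up adjustment, as deposited, and a log2 fold change, as deposited. Of 28997 genes the table for G2 against G1 holds 15652, with all 5 members and no gene above 0. Higher genes were rebuilt from the other 3 tables, which on 7792 listed genes differed by at most 1e-14 in log2.

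The deposited p-values are the main test. Standard errors were derived from log2 and p under a normal distribution. Reads per library were solved as the whole numbers whose negative binomial fit, with 1 dispersion per gene, returns the deposited values, a step chosen after the data were seen. On simulated data 20 of 20 vectors of the members were right and 0 wrong, and 145 of 162 listed genes were solved. Correlations and ratios rest on these reads. The interaction was adjusted over 15494 genes with a total of at least 100. Members and lists were chosen with earlier results of these data known. Named genes are the members, the genes of each list that were called or had the 2 highest totals, all measured globins and heme enzymes, and the 10 genes nearest in group levels. A few genes that this rule takes are not reported here. Python 3.11.15, scipy 1.17.1 and R 4.3.3 were used. The deposited p-values and those of the interaction rest on 1 modelled dispersion per gene, shared by the 4 groups of 3 mice. They do not measure the spread of the compared mice alone.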

Additional observations from a re-analysis of the deposited data

How the results depend on the processing

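In each of the 4 comparisons and in the interaction, 0 of the 5 genes were called as deposited, without a filter on low totals, with genes of a total of at least 100, after centring on the median gene, and after trends on total, length and GC content were removed (15200 genes with these values). Without 1 library, the median log2 of the members ran from -0.90 to -0.37 in G2 against G1, from -0.18 to 0.27 in G3 against G1, from 0.12 to 0.56 in G4 against G2, from -0.46 to -0.072 in G4 against G3, and from 0.15 to 0.65 for the interaction. The number of members with an unadjusted p under 0.05 in G2 against G1 was 3, and it ran from 0 to 5 without 1 library. It was 0 without library 3 of G1 or library 3 of G2, and 5 without library 2 of G1 or library 1 of G2. In the remaining 36 alternatives, with no library left out, the counts did not change. The medians moved by less than the within-group SD, whose median over the members was 0.42 on the log2 scale. That bound is wide and shows little. In G3 against G1 the median of 0.024 became -0.062 with copies summed, a change of sign within it. Adjusted p-values without 1 library were not run, since the other genes were not refitted. No paired analysis was possible because the labels pair no mice across groups. The depth limits Alas2 most, at 33 to 102 reads a library.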

Other observations

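The ratio of Hbb-bs to Hbb-bt reads lay between 7.40 and 7.49 in the 3 libraries of G4, above the 6.11 to 6.74 of G3 and the 6.13 to 7.34 of G2. In G1 it lay between 6.72 and 7.38. This was noticed in the data and not tested, and the split of reads between these near-identical genes is uncertain. The alpha to beta ratio of G4, 1.56 to 1.64, lay above the 1.44 to 1.50 of G2 and overlapped the 1.48 to 1.58 of G3.

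All 8 of 8 adipocyte markers had lower values in G2 than in G1 (median log2 -0.68), none of them called. All 8 were also lower in G3 against G1, with a median of -0.23. Library 3 of G1, the highest for the globin genes, stood out for some of them. In libraries 1 to 3 of G1 Adipoq had 106, 106 and 256 normalised reads and Lep 43.2, 51.6 and 158. Fabp4 had 5001, 4417 and 4621 there. Of 10 soleus muscle markers 8 had higher values in G2 than in G1, with a median of 0.19 and 0 called. Fabp4, the fatty acid binding protein of adipocytes and capillaries, rose in G4 against G2 by a log2 of 0.37 in the authors' deposited table (adjusted p = 0.0254). Eng, the endothelial receptor endoglin, rose there by 0.66 in the authors' deposited table (adjusted p = 0.0283).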
